A study of Mus musculus with 6 samples.

Results

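A set of 10 genes of osteoblast differentiation and bone mineralization was examined in stimulated primary cells labelled as osteocytes. The genes were chosen by gene symbol, with earlier results of these data known. All 10 (*Runx2*, *Sp7*, *Alpl*, *Enpp1*, *Phospho1*, *Ibsp*, *Spp1*, *Bglap*, *Bglap2* and *Mgp*) were found among the 56748 genes of the count table. Osteoblasts form bone by secreting a collagen matrix that hardens as calcium phosphate crystals grow in it. Whether crystals form depends on the local balance between phosphate, which feeds them, and pyrophosphate, which blocks their growth, and on acidic and Gla-containing matrix proteins that bind mineral. Osteocytes are the descendants of osteoblasts that become embedded in that matrix, and they are known to keep part of this gene program.

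Bulk RNA sequencing covered 6 libraries, 3 labelled WT and 3 labelled cKO, the osteocyte-specific *Gsdmd* knockout. The cells came from the long bones of mice and were released by serial trypsin, collagenase and EDTA digestion before 7 days of culture. For this isolation the study's methods name C57BL/6 animals aged 7 weeks, and for the stimulated cells C57BL/6J and *Gsdmd*-deficient donors. A separate age of the knockout donors is not given in the sources used here. The knockout mice carried 2 floxed *Gsdmd* alleles and a *DMP1-Cre* transgene, so that deletion depended on activity of the promoter of dentin matrix protein 1, a gene of late osteoblasts and osteocytes. All cells, WT included, were exposed to LPS (10 ng/mL for 3 h) and then to aluminum hydroxide, an inflammasome activator, at 20 µg/mL for 3 h, and unstimulated cells were not analysed here. The comparison asks how the genotypes differ in these genes after that stimulation. Total counts were 45128793, 49734046 and 39590527 in WT replicates 1 to 3 and 41645500, 39566835 and 45161392 in cKO replicates 1 to 3. No source used here says whether the replicates were separate animals or cultures, and the p-values measure only the spread between these samples.

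The labels were checked first. *Gsdmd* (chromosome 15, 75734176 to 75739257) reached 13.5, 14.1 and 14.1 counts per 1000000 (CPM) in WT and 21.0, 23.6 and 23.0 CPM in cKO. The targeted gene was thus higher where it should have been deleted (log2 fold change 0.69, adjusted p = 2.27e-06 by edgeR with Benjamini-Hochberg adjustment), although a gene count pools floxed and remaining exons. That group is therefore called the libraries labelled cKO, and each direction rests on that label. *Xist*, expressed from the inactive X of females, had 0 to 4 counts in WT and 44817 to 51216 in the other group, where the Y-linked genes *Ddx3y*, *Eif2s3y*, *Uty* and *Kdm5d* all had 0 counts. In WT these 4 genes had between 1203 and 5455 counts, so donor sex and the genotype label cannot be told apart. The study's methods, in contrast, describe mice matched for age and sex.

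Defining osteocyte transcripts were close to absent in all 6 libraries. *Sost* and *Dkk1*, which encode Wnt antagonists, had 0 counts throughout, a result that allows up to 3 counts in a library. *Dmp1* itself was counted 0, 0 and 4 times in WT and 2, 6 and 4 times in the libraries labelled cKO. Counts of *Mepe* ran from 0 to 2, of *Phex* from 2 to 22 and of *Fgf23* from 0 to 34. Of 11 osteocyte markers 5 were abundant enough to test, with a median log2 fold change of -0.28. *Pdpn* (234 to 193 CPM), *Fbln7* (24.2 to 17.1 CPM), *Kcnk2* (13.8 to 11.3 CPM) and *Ptprz1* (1.04 to 0.222 CPM) were lower in the libraries labelled cKO, and *Irx5* did not pass. Without WT replicate 2, WT replicate 3 or cKO replicate 3, 3 markers were lower, and without WT replicate 3, 1 was higher. A further limit of a 2-fold difference left 1 marker lower and 0 higher.

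Macrophage transcripts separated the genotypes. All 15 tested macrophage markers of a list of 16 were higher in the libraries labelled cKO, with a median log2 fold change of 3.01. Summed over the list, they reached 1218, 1321 and 1372 CPM in WT and 6555, 6829 and 6882 CPM in the libraries labelled cKO. *Lyz2*, the most abundant, went from 986 to 4518 CPM, *Adgre1* from 36.4 to 237.7 CPM, *Cd68* from 53.6 to 296.9 CPM and *Ptprc* from 13.3 to 104.3 CPM, while *Cd163* was near 0 in both. In bulk RNA, fewer cells of a type and less RNA per cell cannot be told apart, which holds for every gene described here. The part of the macrophage transcripts and of donor sex in the differences of the mineralization genes was not tested.

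Of the 10 mineralization genes, 8 had enough counts to be tested, and *Bglap* and *Bglap2* did not. *Ibsp*, *Mgp* and *Alpl* were higher in the libraries labelled cKO, and *Spp1*, *Enpp1*, *Runx2* and *Sp7* were lower. *Phospho1* did not pass the test. The 3 higher genes passed with any library left out, but of the 4 lower genes 2 passed without cKO replicate 3 and 3 without any other single library. These 7 of 8 are read beside the 39.3% of all 17146 tested genes that passed at an adjusted p below 0.05, 20.1% higher and 19.2% lower. Since the genes were chosen with earlier results of these data known, this is a description only. The split over all genes was 3445 higher and 3285 lower, and with upper-quartile in place of TMM scaling it was 2799 and 4294, while the same 7 genes passed. CPM of the genotypes did not overlap for any of the 8, which also held for 49.2% of all tested genes. With a further limit of a 2-fold difference, *Ibsp* and *Mgp* remained, where 11.2% of all tested genes did (6.56% higher and 4.64% lower). The median log2 fold change was -0.38 over the 8 genes and 0.0077 over all tested genes.

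**Figure D1:**
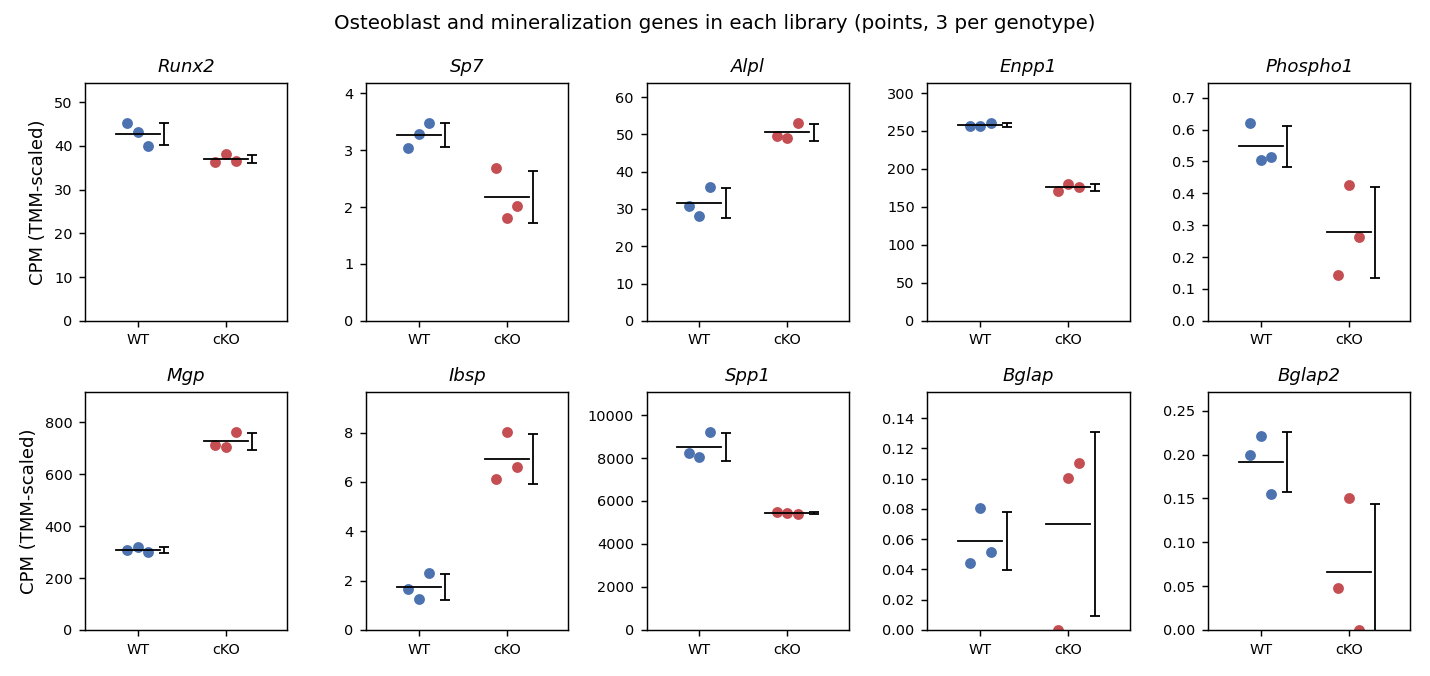
CPM (TMM-scaled counts per 1000000, linear axes from 0) of the 10 genes in each library. Points are libraries (3 WT, 3 labelled cKO), horizontal lines are means and bars show the SD. The points of the genotypes lie apart in every panel except that of *Bglap*, and those of *Bglap* and *Bglap2* rest on 11 counts or fewer per library.

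*Runx2* and *Sp7* encode the transcription factors that commit mesenchymal cells to the osteoblast lineage, with *Sp7* (osterix) acting downstream of *Runx2*. Both were lower in the libraries labelled cKO, by small margins. *Runx2* (chromosome 17, 44806874 to 45125684, minus strand) stood at 45.1, 43.1 and 40.0 CPM in WT and at 36.4, 38.1 and 36.6 CPM in the libraries labelled cKO, from 1515 to 2137 counts. The lowest WT value lay just above the highest of the other group. The means were 42.7 ± 2.58 and 37.0 ± 0.937 CPM (SD, n = 3), with a log2 fold change of -0.21 (SE 0.061, adjusted p = 0.0118 by edgeR with Benjamini-Hochberg adjustment). The call depended on single libraries, since edgeR's adjusted p became 0.0516 without cKO replicate 1 and 0.0508 without cKO replicate 3. The log2 fold change in these fits was -0.19 and -0.20. Over all alternatives the adjusted p ranged from 0.00155 to 0.0516. *Supt3*, *Runx2os1* and *Runx2os2* overlap *Runx2* on the opposite strand with at most 374, 77 and 15 counts, and although the library kit was directional, the strand setting of the counting is not given in the sources used here, so reads of such pairs may have been mixed.

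*Sp7* (chromosome 15, 102265041 to 102275617, minus strand) was scarcer, with 72 to 163 counts per library. It reached 3.04, 3.28 and 3.48 CPM in WT and 2.69, 1.81 and 2.03 CPM in the libraries labelled cKO. Again each WT library exceeded each library of the other group. The means were 3.27 ± 0.218 and 2.17 ± 0.456 CPM (SD, n = 3), and the log2 fold change was -0.59 (SE 0.22, adjusted p = 0.0405 by edgeR with Benjamini-Hochberg adjustment). This call held without cKO replicate 1 (edgeR's adjusted p = 0.0216) and was lost without any other library. The adjusted p was 0.0504, 0.0745 and 0.0774 without WT replicates 1, 2 and 3. It was 0.145 without cKO replicate 2 and 0.121 without cKO replicate 3. The log2 fold change lay between -0.76 and -0.48 with each library left out. Taking the replicate number as a block also ended the call (log2 fold change -0.60, adjusted p = 0.0548 by edgeR).

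Among other transcription factors of the osteoblast lineage more were lower than higher. Of 16 such genes, all tested, 8 were lower, 2 were higher and 6 did not pass, with a median log2 fold change of -0.38. The counts of this and every other list are read beside 20.1% of all tested genes higher and 19.2% lower. At the 2-fold limit these shares were 6.56% and 4.64%. *Runx1*, a relative of *Runx2* that is also prominent in blood cells, was the most abundant in the libraries labelled cKO, though not in WT, and rose to 301.2 CPM from 180.0 in WT (log2 fold change 0.74, adjusted p = 3.77e-10), whereas *Runx3* fell from 20.0 to 12.8 CPM (-0.65, adjusted p = 1.11e-05). *Cbfb*, the partner subunit of all 3 RUNX proteins, was the other higher gene, at 75.3 and 87.7 CPM. Without WT replicate 3 or cKO replicate 1, or with upper-quartile scaling, the list had 1 higher gene. With any library left out 6 or 7 genes were lower, and with at least 10 counts in every library 5 were. At the 2-fold limit 3 were lower and 0 higher. The ratio of *Runx1* to *Runx2* per kilobase was 3.12, 2.92 and 3.25 in WT and 6.08, 5.69 and 6.18 in the libraries labelled cKO, so that *Runx1* exceeded *Runx2* in every library. *Twist2*, which restrains *Runx2* activity, had a log2 fold change of -1.45 (14.4 to 5.28 CPM, adjusted p = 7.81e-09), and *Atf4*, a stress-responsive factor needed by mature osteoblasts, one of -0.38 (216.8 to 166.4 CPM, adjusted p = 2.97e-06).

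The enzymes that set phosphate and pyrophosphate moved in opposite directions. *Alpl*, which encodes the tissue-nonspecific alkaline phosphatase that splits pyrophosphate into phosphate, was higher in the libraries labelled cKO, and *Enpp1*, which encodes the ectoenzyme that makes pyrophosphate from ATP, was lower. *Alpl* (chromosome 4, 137469044 to 137523695, minus strand) stood at 30.7, 28.03 and 35.97 CPM in WT and at 49.5, 49.0 and 53.2 CPM in the libraries labelled cKO. All 3 of the latter were above the highest WT library. The means of 31.6 ± 4.03 and 50.6 ± 2.29 CPM (SD, n = 3) correspond to a 1.60-fold difference and a log2 fold change of 0.68 (SE 0.077, adjusted p = 1.25e-06 by edgeR with Benjamini-Hochberg adjustment).

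*Enpp1* (chromosome 10, 24513812 to 24588057, minus strand) was read 7166 to 12740 times per library. It reached 256.1, 256.7 and 261.2 CPM in WT, a narrow band, and 171.0, 180.2 and 176.1 CPM in the libraries labelled cKO. The gap between the groups was many times the spread within either of them. Means were 258.0 ± 2.76 and 175.8 ± 4.59 CPM (SD, n = 3), with a log2 fold change of -0.55 (SE 0.040, adjusted p = 3.42e-09 by edgeR with Benjamini-Hochberg adjustment). Within single libraries, the ratio of *Alpl* to *Enpp1* per kilobase was 0.305, 0.278 and 0.350 in WT and 0.736, 0.691 and 0.768 in the libraries labelled cKO. *Enpp1* thus remained the more abundant of the pair in every library, but by less where the label was cKO. The gene pairs for such ratios were chosen after their values were seen. Permuting the labels gave a p of 0.1 for each pair, the smallest that 6 libraries allow. Because the pairs were chosen with their values seen, this p gives no support to a difference.

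*Phospho1* encodes the phosphatase that releases phosphate from phosphocholine inside matrix vesicles. It lies on chromosome 11 from 95715325 to 95722966 and was counted 28, 25 and 20 times in WT and 6, 17 and 12 times in the libraries labelled cKO, or 0.547 ± 0.0652 and 0.278 ± 0.143 CPM (SD, n = 3). All WT values exceeded those of the other group, yet the log2 fold change of -0.98 (SE 0.52) had an adjusted p of 0.158 by edgeR with Benjamini-Hochberg adjustment. The gene also lies inside *Zfp652* on the same strand and overlaps *Abi3* on the other, each with more counts than *Phospho1* (2495 to 3610 and 147 to 318), so its own count is uncertain. Both of these genes were higher in the libraries labelled cKO.

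Around these 3 enzymes, a list of 16 symbols for phosphate and pyrophosphate handling had 13 tested genes, of which 5 were lower, 2 were higher and 6 did not pass (median log2 fold change -0.065). At the 2-fold limit 0 were lower and 1 was higher. *Slc20a2*, a sodium-phosphate importer, fell to 61.1 CPM from 118.0 in WT (log2 fold change -0.95, adjusted p = 4.71e-11) and *Nt5e*, which turns AMP into adenosine and phosphate, from 381.6 to 307.0 CPM (-0.31, adjusted p = 2.70e-05). *Entpd1*, an ectoenzyme that degrades ATP and is abundant on immune cells, rose from 9.32 to 67.8 CPM (2.87, adjusted p = 1.98e-14), and the phosphate exporter *Xpr1* from 103.7 to 126.1 CPM (0.28, adjusted p = 8.21e-05). The most abundant gene of the list, the transporter *Abcc1*, was lower at 388.9 against 454.8 CPM. The pyrophosphate transporter *Ank* was lower as well, at 159.5 against 187.7 CPM in WT.

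*Ibsp* and *Spp1* encode bone sialoprotein and osteopontin, acidic phosphoproteins of bone matrix that bind integrins. The genes sit in 1 cluster on chromosome 5, where *Dspp*, *Dmp1*, *Ibsp*, *Mepe* and *Spp1* follow each other between 104318578 and 104588916, all on the plus strand. They changed in opposite directions in the libraries labelled cKO, *Ibsp* upward and *Spp1* downward. Bone sialoprotein is known to promote crystal formation, and osteopontin, which macrophages also make, is known to inhibit crystal growth.

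*Ibsp* (104447037 to 104459335) was counted 74, 62 and 89 times in WT and 257, 320 and 300 times in the libraries labelled cKO. That equals 1.64, 1.25 and 2.29 CPM against 6.11, 8.05 and 6.60 CPM. The lowest value of the second group was more than double the highest WT value. Means were 1.73 ± 0.527 and 6.92 ± 1.01 CPM (SD, n = 3), with a log2 fold change of 2.01 (SE 0.22, adjusted p = 5.95e-07 by edgeR with Benjamini-Hochberg adjustment). Of the 8 tested genes it had the greatest log2 fold change in size.

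*Spp1* (104582984 to 104588916) was by far the most abundant of the 10, with 216663 to 398723 counts per library. It stood at 8216, 8035 and 9234 CPM in WT and at 5471, 5449 and 5407 CPM in the libraries labelled cKO. The latter 3 lay close together and well under all WT libraries. Macrophage markers were higher in the same libraries, and their part in the level of *Spp1* was not tested. Means of 8495 ± 646 and 5442 ± 32.5 CPM (SD, n = 3) gave a log2 fold change of -0.64 (SE 0.040, adjusted p = 4.24e-10 by edgeR with Benjamini-Hochberg adjustment). *Gm42793*, which overlaps *Spp1* on the same strand, held 283 to 374 counts and did not pass the test. *Pkd2*, the next gene beyond *Spp1*, had a log2 fold change of -0.043 (adjusted p = 0.369). The ratio of *Ibsp* to *Spp1* per kilobase rose from a mean of 0.00016 in WT to 0.00101 where the label was cKO, so *Spp1* remained far above *Ibsp* in both.

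Among the surrounding bone matrix genes more were lower than higher. Of 13 listed genes 11 were tested, with 6 lower, 2 higher and 3 not passing (median log2 fold change -0.23). At the 2-fold limit 0 were lower and 1 was higher. *Col1a1*, the main chain of type I collagen and the most abundant gene of the list, fell to 3650 CPM from 5802 in WT (log2 fold change -0.67, adjusted p = 1.21e-10). *Sparc*, a collagen-binding glycoprotein of bone, fell from 4885 to 3146 CPM (-0.63, adjusted p = 3.97e-12), the proteoglycan *Bgn* from 4850 to 3631 CPM (-0.42, adjusted p = 3.84e-09) and the collagen chaperone *Serpinh1* from 1086 to 817.8 CPM (-0.41, adjusted p = 4.11e-08). *Omd* (3.39 to 8.21 CPM) and *Fam20c* (73.4 to 100.3 CPM), the kinase that phosphorylates *Spp1* and *Ibsp* products, were the 2 higher genes.

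*Mgp*, *Bglap* and *Bglap2* encode Gla proteins, in which vitamin K-dependent carboxylation creates calcium-binding residues. Matrix Gla protein, the product of *Mgp*, is known to inhibit calcification of cartilage and vessels, whereas osteocalcin, encoded by *Bglap* and *Bglap2*, is a late osteoblast product. *Mgp* was higher in the libraries labelled cKO, and the osteocalcin genes were barely detected in either genotype. *Mgp* (chromosome 6, 136849433 to 136852821, minus strand) reached 307.1, 320.0 and 298.7 CPM in WT and 711.2, 703.8 and 765.1 CPM in the libraries labelled cKO. Every one of the latter was more than double any WT library. The means of 308.6 ± 10.7 and 726.7 ± 33.4 CPM (SD, n = 3) differed by 2.35-fold, a log2 fold change of 1.24 (SE 0.042) with the smallest adjusted p among the 8 tested genes, 1.06e-13 by edgeR with Benjamini-Hochberg adjustment.

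Chondrocyte markers, among which *Mgp*, *Ibsp* and *Alpl* also have known expression, differed in both directions. Of 12 listed chondrocyte markers 10 were tested, with 8 higher and 2 lower where the label was cKO. Of these markers 6 were higher and 0 lower at the 2-fold limit. With at least 10 counts in every library 4 were higher and 2 lower, since 4 of the higher genes had fewer than 10 counts in each WT library. Their summed level was 2188, 1976 and 2071 CPM in WT and 2960, 3151 and 3047 CPM in the libraries labelled cKO. *Comp*, the most abundant in the libraries labelled cKO, went from 567.0 to 2117 CPM, *Acan* from 0.124 to 20.2 CPM and *Col9a3* from 0.508 to 8.58 CPM, whereas the defining cartilage collagen *Col2a1* went from 1428 to 797.8 CPM and *Col10a1*, of hypertrophic chondrocytes, from 4.10 to 2.75 CPM. Without WT replicate 2, cKO replicate 1 or cKO replicate 2, 1 marker was lower. The part of these transcripts in the rise of *Mgp*, *Ibsp* and *Alpl* was not tested.

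*Bglap* and *Bglap2* are neighbours on the minus strand of chromosome 3 (88290808 to 88291771 and 88285043 to 88286006), next to their relative *Bglap3*. *Bglap* was counted 2, 4 and 2 times in WT and 0, 4 and 5 times in the libraries labelled cKO, and *Bglap2* 9, 11 and 6 times against 2, 6 and 0 times. Neither reached the minimum for testing, and *Bglap3* had at most 2 counts in a library. The first 36 coding bases of *Bglap* (GRCm39 chr3:88291687-88291722) and *Bglap2* (GRCm39 chr3:88285922-88285957), both in a first coding exon on the minus strand, are shown because 3 of the 4 differences between their coding sequences, in capitals, fall there.

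Bglap: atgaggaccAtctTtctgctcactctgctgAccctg
Bglap2: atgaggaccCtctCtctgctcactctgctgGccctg

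Over their full coding sequences of 285 bases the 2 genes were 98.6% identical, with a shared stretch of 241 bases, longer than the reads of 150 bases. A read from that stretch fits either gene, so the split of counts between them is uncertain. If such reads were left out of the counting, the counts of both genes and their sum would be too low. Summed over *Bglap*, *Bglap2* and *Bglap3*, there were 11, 15 and 9 counts in WT and 2, 12 and 5 in the libraries labelled cKO. These ranges overlap, and the sum had a log2 fold change of -0.78 (adjusted p = 0.410 by edgeR with Benjamini-Hochberg adjustment). Its size rested on single libraries, being -0.35 without cKO replicate 1 and -1.68 without cKO replicate 2, and it did not pass in either case.

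Genes for carboxylation, on which the Gla proteins depend, moved in both directions. Of 5 listed genes 4 were tested, with 2 higher, 1 lower and 1 not passing (median log2 fold change 0.24). Of these genes 0 were higher and 0 lower at the 2-fold limit. *Gas6*, itself a Gla protein and the most abundant of them, rose to 531.7 CPM from 391.4 in WT (log2 fold change 0.44, adjusted p = 1.02e-07). The vitamin K reductase gene *Vkorc1l1* went from 35.7 to 43.1 CPM (0.27, adjusted p = 0.00182), and the carboxylase gene *Ggcx* from 65.6 to 58.5 CPM (-0.16, adjusted p = 0.0161, a call lost without cKO replicate 2). The related reductase gene *Vkorc1* did not pass at 2.66 and 3.09 CPM.

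**Figure D2:**
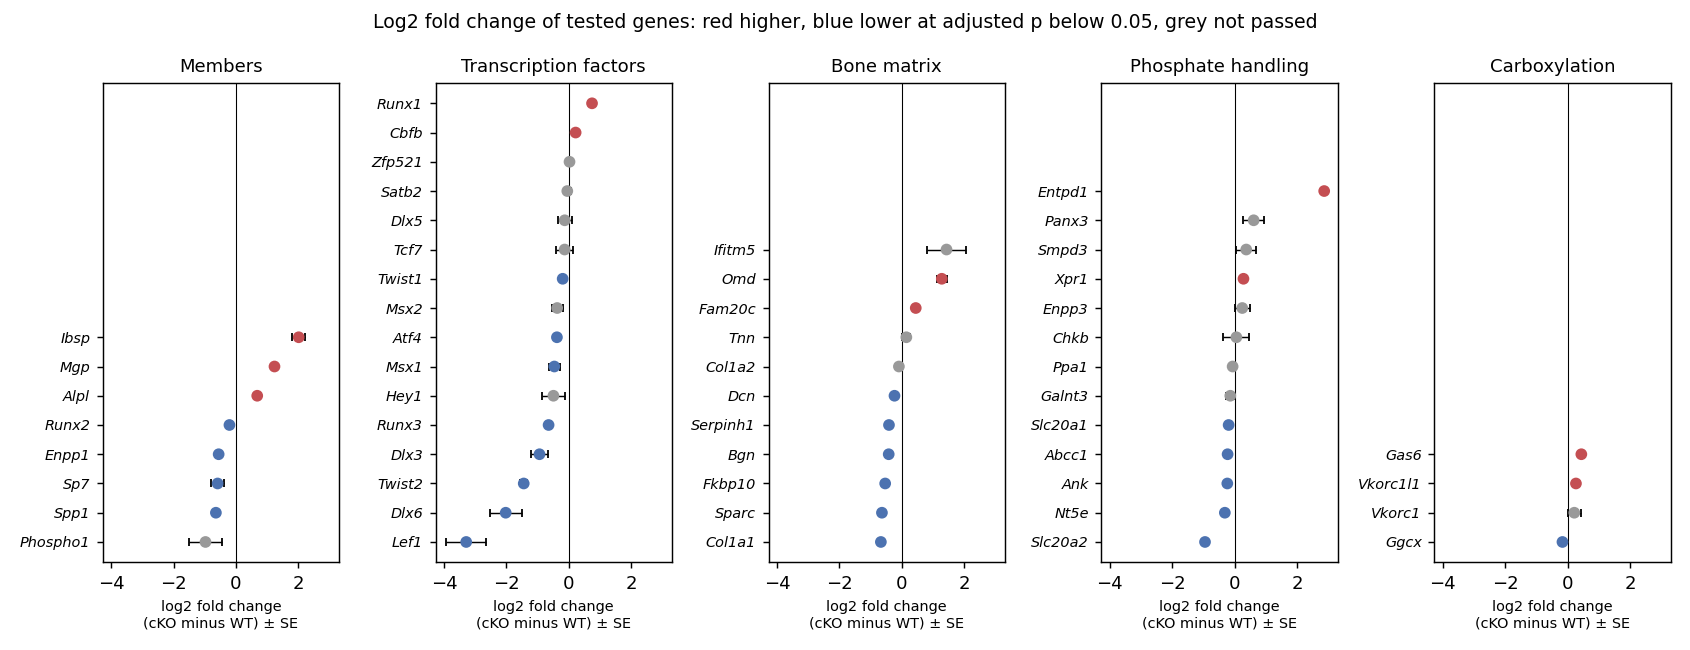
Log2 fold change (cKO minus WT, horizontal axis, with SE) of the tested mineralization genes and of the 4 accompanying lists, 1 gene per line. Red marks genes higher and blue genes lower at an adjusted p below 0.05, and grey those that did not pass. *Ibsp* at 2.01 and *Mgp* at 1.24 lie farthest right among the mineralization genes, and *Phospho1* at -0.98 farthest left.

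Per kilobase of gene length, the 10 genes spanned a wide range of levels. In WT the order ran from *Spp1* (5155 ± 392 CPM per kilobase) through *Mgp* (260.0 ± 9.03), *Enpp1* (25.2 ± 0.269), *Alpl* (7.83 ± 1.00) and *Runx2* (4.84 ± 0.292) to *Sp7* (0.962 ± 0.0640), *Ibsp* (0.836 ± 0.255), *Bglap2* (0.408 ± 0.0727), *Phospho1* (0.270 ± 0.0322) and *Bglap* (0.0952 ± 0.0310, SD, n = 3 each). *Sp7* and *Ibsp* did not differ beyond their spread there. In the libraries labelled cKO *Ibsp* ranked above *Sp7*, with 3.35 ± 0.487 against 0.640 ± 0.134 CPM per kilobase, and just under *Runx2* with 4.19 ± 0.106. *Bglap2*, *Phospho1* and *Bglap*, at 0.140 ± 0.164, 0.137 ± 0.0705 and 0.114 ± 0.0987 CPM per kilobase, could not be ordered. At the upper end, *Spp1* (3302 ± 19.7) and *Mgp* (612.2 ± 28.2) drew closer, and the ratio of *Mgp* to *Spp1* per kilobase moved from 0.0507 ± 0.00529 to 0.185 ± 0.00957.

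For the higher and the lower gene with the smallest p-values, the genes with the most similar profile over the 6 libraries were found by the root mean square difference of centred log2 CPM. Nearest to *Mgp* were *Rbp4* (0.036), *Ppm1h* (0.037) and *Abca1* (0.045). *Spp1* was most similar to *Enho* (0.021), *Slit3* (0.029) and *Cdh11* (0.032). *Enho* stood at only 2.94 and 1.69 CPM, where the pseudocount of 0.5 CPM shrinks differences, and its log2 fold change was -0.80 against -0.64 for *Spp1*. These distances describe 6 values per gene in 2 groups and say nothing of shared function.

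Promoters were compared for what the members share in sequence. RefSeq's promoter table (GRCm38.p6) held 9 promoters for 7 of the 10 genes, each with 250 bases before and 50 after the start, and *Sp7*, *Bglap2* and *Mgp* had no entry. The RUNX core ACCACA, searched on both strands, was in promoters of *Runx2*, *Spp1*, *Enpp1* and *Bglap* and in 16.8% of all 32851 promoters. The longer AACCACA, which contains it, was in those of *Runx2* and *Spp1* and in 5.27% of all promoters. *Runx2* had 3 such matches, and *Spp1*, *Enpp1* and *Bglap* 1 match of the core each. A GC box (GGGCGG, in 35.7% of all promoters) was in promoters of *Alpl*, *Enpp1* and *Phospho1*, and the homeodomain core TAATT (27% of all) in those of *Bglap*, *Ibsp* and *Spp1*. The matches of the core before the start are shown with ACCACA in capitals. Of these 4 genes, *Runx2*, *Spp1* and *Enpp1* were lower and *Bglap* was too scarce to test. Whether the matches bear on these differences was not tested. By exact match they lie in GRCm39 at chr17:45125577-45125606 (minus strand, *Runx2*), chr5:104582837-104582866 (plus strand, *Spp1*), chr10:24588184-24588213 (minus strand, *Enpp1*) and chr3:88291888-88291917 (minus strand, *Bglap*). In GENCODE M39 the first 2 fall in untranslated exon sequence of longer transcripts of the same gene, the one in *Runx2* also within *Supt3* on the other strand, and the other 2 lie in no annotated gene.

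Runx2: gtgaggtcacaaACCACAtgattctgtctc
Spp1: tttttttttttaACCACAaaaccagaggag
Enpp1: cactctttgcagACCACAcagcgattccag
Bglap: ccgcaatcacctACCACAgcatcctttggg

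The motif in *Runx2* begins 80 bases before the start of transcription, in *Spp1* 128, in *Enpp1* 144 and in *Bglap* 132. A match is a description of the sequence, and binding at these places was not measured.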

How the data were processed

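Trimmed paired-end reads of 150 bp were aligned by the authors to GRCm39 (mm39) with HISAT2 2.0.5. The authors counted them on genes with featureCounts 1.55.0-p3 (per the submitters' processing notes; the study's methods name another version and also RSEM) and deposited counts per gene without normalization, with other columns such as gene length in bases. Gene coordinates are those of the table. Small counts were mostly even (63.4% to 65.7% of counts from 1 to 10), as when both mates of a pair are counted. From these counts, edgeR 4.0.16 in R 4.3.3 (filterByExpr, TMM, glmQLFit without robust estimation, glmQLFTest, genotype as the only term) gave log2 fold changes and p-values, adjusted by Benjamini-Hochberg over the 17146 tested genes and called below 0.05. CPM are counts per 1000000 of TMM-scaled library size. Replicates of a genotype differed by more than sampling noise (chi-square per gene 4.88 to 13.95, and 2.50 to 7.48 with counts halved in case both mates were counted, a check added after the data were seen) and were counted separately. This compares libraries with counting noise only, so it cannot show that they were separate animals or cultures. The procedure was tested on simulated data. Likeness used a pseudocount of 0.5 CPM. Coding sequences were aligned with Biopython 1.88.

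Named were the 10 genes, *Gsdmd*, *Bglap3*, neighbouring and overlapping genes and the most abundant gene of each list over both genotypes. Named too were the 4 smallest p-values of each list except the macrophage list, and defining osteocyte and macrophage markers. The genes most like *Mgp* and *Spp1* were also named. *Cbfb*, *Omd*, *Fam20c*, *Ank* and *Col10a1* were named after their values were seen. The members and lists were chosen with earlier results of these data known. One gene, later taken out of the lists, is not reported here, and no count of higher or lower genes changed with it. Alternatives included edgeR's exact test, DESeq2 1.42.0, limma-voom (limma 3.58.1), other scalings and filters, halved counts, a fold limit, a replicate block and each library left out. Protein sequences were not analysed here.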

Additional observations from a re-analysis of the deposited data

How the results depend on the processing

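*Alpl*, *Ibsp* and *Mgp* were called higher and *Spp1* and *Enpp1* lower under DESeq2, edgeR's exact test, limma-voom, 3 other scalings, both other filters, halved counts and every left-out library. With a log2 fold limit of 1, 1124 genes were higher and 796 lower over the whole table, and 0 of the 10 genes were lower, because none of the 4 differed 2-fold. With each library left out, 2 to 3 of the 10 were lower, with 2 without cKO replicate 3, where *Runx2* and *Sp7* were both lost with fewer samples. Same-numbered replicates correlated at 0, 0.001 and -0.014 in centred log2 CPM, and differently numbered ones between -0.015 and 0.015. With 3 libraries per genotype, this cannot show whether the numbers paired the libraries. With the replicate block, 3298 genes were higher and 3098 lower over the table, and 3 and 3 of the 10, with *Sp7* at an adjusted p of 0.0548 by edgeR with Benjamini-Hochberg adjustment. *Phospho1* and the osteocalcin sum did not pass under any setting that could test them. The filter at 10 counts removed both, and halving removed the sum. The log2 ratio of *Alpl* to *Enpp1*, an addition after the data were seen, lay between 1.16 and 1.33 with each library left out. Scaling levels per length to TPM raised all of them (*Spp1* to 19866 in WT).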

Other observations

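Markers of other cell types that bone digests can hold also differed between the genotypes. Of 8 tested osteoclast markers (of 10), the libraries labelled cKO had 2 higher and 3 lower. *Atp6v0d2* went from 21.3 to 76.6 CPM and *Acp5* from 5.70 to 13.5 CPM, whereas *Mmp9* went from 21.9 to 3.05 CPM and *Itgb3* from 60.6 to 42.2 CPM, and *Nfatc1*, at 88.5 and 87.1 CPM, did not pass. Of 11 fibroblast and tendon markers, 6 were lower and 2 higher, with *Postn* at 230.6 and 26.4 CPM, *Pdgfra* at 498.7 and 679.5 CPM, *Thy1* at 144.7 and 95.5 CPM and *Ly6a* at 147.2 and 106.9 CPM. Smooth muscle genes were lower, namely *Acta2* (760.6 to 376.1 CPM), *Tagln* (402.7 to 134.5 CPM), *Cnn1* (38.1 to 14.8 CPM) and *Myh11* (10.0 to 0.445 CPM), 4 of 5 tested (of 7).

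Of 7 tested adipocyte and marrow stromal markers (of 9), 5 were higher and 1 lower. *Cxcl12* went from 333.6 to 1053 CPM, *Cebpa* from 15.9 to 52.5 CPM and *Lpl* from 17.3 to 33.2 CPM, and *Kitl* from 98.1 to 27.7 CPM. Endothelial markers were scarce, and 4 of 6 tested (of 7) were lower, or 1 with at least 10 counts in every library. *Emcn* went from 1.11 to 0.0147 CPM, *Tek* from 1.09 to 0.0525 CPM and *Cdh5* from 1.69 to 0.197 CPM, and *Kdr*, the 1 higher gene, from 1.35 to 5.55 CPM. At a 2-fold limit, 2 osteoclast markers were higher and 1 lower, 1 fibroblast and tendon marker higher and 2 lower, and 2 adipocyte and marrow stromal markers higher and 1 lower. The part of these transcripts in the differences of the mineralization genes was not tested.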
